A study of Drosophila melanogaster with 6 samples.

Results

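The transcripts of sorted intestinal progenitor cells of wildtype Drosophila melanogaster midguts were described from the 3 control libraries of a series of 6. Members were chosen by their title, which calls them control, and by their genotype label. The other 3 libraries of the series, from Pex5-depleted progenitors, were not compared with them. Each control library came from one of 3 biological replicates of 200 dissected guts, and about 40000 GFP-positive cells were sorted per replicate. The sort gate had been set on midguts of esgGFP>w1118 flies, which express GFP under the escargot (esg) driver, and of w1118 flies without GFP. Guts were held for 1 hour at 27 °C with elastase at 1 mg/ml before the sort, and propidium iodide was added. Sex and age of the flies are not given in the sources used here. Each library is therefore a pool of many animals and of every cell type that passed the gate.

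The adult fly midgut is renewed by intestinal stem cells, which divide to give another stem cell and a daughter that matures. A daughter that receives a strong Notch signal, the enteroblast, becomes an absorptive enterocyte that secretes digestive enzymes, and a daughter without it becomes a hormone-secreting enteroendocrine cell. The transcription factor Escargot is expressed in stem cells and enteroblasts, holds them undifferentiated and is the usual handle for sorting them.

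Libraries were made with a 3′ kit, in which every captured molecule receives a unique molecular identifier (UMI), so that PCR copies are counted once. Levels are UMIs per 1000000 of the library's Drosophila genes (CPM). Because a molecule gives 1 tag whatever its length, CPM was not divided by transcript length. Gene positions are those of the deposited table, in build dm6. In every list of 3 values below, the order is control replicate 1, 2 and 3, and ± marks the SD over these 3 libraries. The libraries held 3539552, 3013033 and 3547768 UMIs from 15, 13.7 and 15.8 reads per UMI, and 9553, 9139 and 9583 genes had at least 1 UMI. Where a library had no UMI of a gene, up to 3 UMIs, or 0.848, 0.996 and 0.846 CPM, remained possible, a floor that covers counting error only. In pairs of libraries, UMI counts differed by 8.42 to 10.6 times the sampling variance (chi-square per degree of freedom), so no pair agreed within sampling noise.

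Of 13189 genes in the table, 11697 had a UMI in at least 1 control library and 7369 in all 3. A level of at least 10 CPM in each library was reached by 2693 genes, which is 20.4% of the table, and at least 1000 CPM by 135. The 20.4% is the share to set beside every later count of genes at 10 CPM in each library. Most of the transcript pool lay in few genes. The 20 most abundant genes held 31.0% of the UMIs, the top 100 held 70.0% and the top 1000 held 92.3%, and 45 genes were enough to hold 50% (47, 44 and 45 when each library was ranked by itself). Of the genes in the top 100 of a library, 94 were in the top 100 of each of the 3. The 2488 genes seen in 1 library alone carried 0.0561% of the UMIs.

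Transcripts for proteins of the cytosolic ribosome, which translates messenger RNA, made up the bulk of the pool. Their 85 genes took 56.1%, 55.9% and 55.5% of the UMIs, a mean of 55.8% ± 0.310%. They filled 18 of the top 20 places and 69 of the top 100, and 80 of them stood at 1000 CPM or more in every library. The highest was sta, the small-subunit protein SA, at 24281, 26553 and 22692 CPM, followed by RpS2 at 20126, 20845 and 19826 CPM. The class kept nearly the same share in each library although its members covered a wide range of levels, down to RpL34a at 778 CPM and RpS15Ab at 51.1 CPM. Only RpS5b, RpS19b and RpL10Aa, of the 85, were under 10 CPM in some library, with means of 1.26 CPM, 0.553 CPM and 0.094 CPM. Their paralogs RpS5a, RpS19a and RpL10Ab averaged 7985 CPM, 4451 CPM and 6842 CPM. RpL32, a common reference gene for quantitative PCR, had one of the smallest CVs among genes of at least 200 CPM, with 4435, 4334 and 4399 CPM and a CV of 1.16%.

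Transcripts of the mitochondrial genome, which encodes core subunits of the respiratory chain and its own ribosomal RNAs, took 5.84%, 7.44% and 5.63% of the UMIs. The large ribosomal RNA mt:lrRNA was the most abundant gene of all, at 37275, 44718 and 35396 CPM, and made up 62.1% of the class. The small ribosomal RNA mt:srRNA averaged 158 CPM. Among the protein-coding mitochondrial genes, mt:CoIII averaged 3014 ± 978 CPM, mt:CoI 2858 ± 1097 CPM and mt:Cyt-b 2647 ± 859 CPM. Of the 22 mitochondrial genes with a mean of at least 10 CPM, 20 were highest in control replicate 2, where 900 of all 3351 genes at that level were highest. The leucine transfer RNA gene mt:tRNA:Leu-TAG, listed at 8200.2 CPM, shares 1 base with mt:lrRNA on the same strand, so reads at their border cannot be told apart and its level is uncertain. Nuclear genes for the respiratory chain took a further 3.58%, 3.13% and 3.37%, led by ATPsynC, the rotor-ring subunit of ATP synthase, at 7753, 7016 and 7597 CPM. COX7A and COX6B, subunits of cytochrome c oxidase, averaged 1481 ± 260.0 CPM and 1109 ± 99.2 CPM. The carriers sesB, which exchanges ATP for ADP across the inner membrane, and porin, the outer membrane channel, stood at 3989, 3491 and 2698 CPM and 2456, 2235 and 2078 CPM.

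Outside these ribosomal and mitochondrial classes, 37.9% of the UMIs remained, and 133 genes were enough to hold 50% of that remainder. Translation factors took 2.37% ± 0.0975% of all UMIs, with eEF1alpha1, which brings aminoacyl-tRNA to the ribosome, at 5283, 5554 and 6126 CPM, eEF5 at 4169.7, 2994 and 3021 CPM and eEF1beta at 3182, 3059 and 2952 CPM. bic and Nacalpha, the subunits of the complex that binds nascent chains as they leave the ribosome, averaged 4130.1 ± 554 CPM and 2741 ± 71 CPM. Rack1, a scaffold protein on the small ribosomal subunit, stood at 2908 ± 146 CPM. YL-1, a subunit of chromatin remodelling complexes that exchange the histone variant H2Av, stood at 3896, 3893 and 2922 CPM, which was rank 71.

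Glutathione transferases, which conjugate glutathione to reactive compounds, took 1.24%, 1.00% and 1.09%. GstD1 led them with 4827, 4426 and 4546 CPM, ahead of GstD2 with 3149.8, 2117 and 2281 CPM and GstE1 with 1498, 1137 and 1450.5 CPM. Of 21 transferases with a mean of at least 10 CPM, 14 were highest in control replicate 1, or 66.7%, beside 1221 of all 3351 genes at that level, or 36.4%. The superoxide dismutase Sod1 stood at 1309 ± 114 CPM and the peroxiredoxin gene Jafrac1 at 209 ± 11.7 CPM, whereas metallothioneins, small metal-binding proteins, were low, with MtnA at 5.09, 5.31 and 4.51 CPM and MtnD at 0.283, 0 and 0 CPM. Of 19 redox and metal genes with a row, 12 reached 10 CPM in each library, or 63.2% beside the 20.4% of all genes. Cytochrome P450 genes took 0.0524% ± 0.00521%, and 4 of their 64 genes reached 10 CPM in each library, led by Cyp6a23 with 257, 209 and 302 CPM.

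Actin and tubulin genes took 0.873%, 1.02% and 0.873%. Cytoplasmic actin Act5C stood at 3599.6, 4296 and 3498 CPM and betaTub56D at 2751, 3038 and 2629 CPM, while the muscle actins Act57B, Act79B and Act88F averaged 0 CPM, 0 CPM and 0.094 CPM. Profilin, encoded by chic, stood at 2501 ± 254 CPM and the regulatory myosin light chain sqh at 1312 ± 98.9 CPM. Of 21 cytoskeleton genes with a row, 17 reached 10 CPM in each library, or 81.0% beside the 20.4% of all genes. The histone signal came from replacement genes, whose messages carry poly-A tails, as most histone messages of the S phase cluster do not. His4r stood at 2731, 3293 and 2907 CPM, His2Av at 562, 554 and 609.7 CPM and His3.3B at 479.7, 536 and 517 CPM, and 4 of the 11 histone genes in the table reached 10 CPM in each library. Proteasome genes took 0.404% ± 0.0343%, the cytosolic chaperonin and prefoldin 0.241% ± 0.0215%, mitochondrial ribosomal proteins 0.502% ± 0.0352% and the vacuolar proton pump 0.214% ± 0.00999%.

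Some abundant entries lay inside other genes. By annotated type, protein-coding genes took 91.3% ± 0.532% of the UMIs and small nucleolar RNA (snoRNA) genes 1.70% ± 0.0230%. All 14 snoRNA genes with a mean of at least 10 CPM lay inside another gene, 13 of them on the same strand inside a ribosomal protein gene, and 0 of these 13 overlapped an annotated exon of that host. snoRNA:U49:66Db in RpL14 stood at 15.6%, 15.7% and 15.4% of its host, snoRNA:Psi18S-1295 in RpS20 at 18.7%, 18.1% and 18.3%, and snoRNA:Psi28S-2444 in RpL11 at 24%, 23.8% and 24.5%. The median over the 13 was 12.7% of the host, and the range was 0.469% to 29.2%. The ratio differed little between libraries for these abundant snoRNAs. Reads of a nested gene and of its host's intron cannot be told apart here, so these entries are uncertain as levels of free snoRNA. The noncoding gene Uhg7, at 7415 CPM, overlaps RpL23A on the same strand and carries the same uncertainty, and so does CR42491 inside RpL22, at 1442 CPM. Of the 100 most abundant genes, 34 overlapped another gene on the same strand and 20 on the opposite strand, or 54% in all. Of the 3351 genes with a mean of at least 10 CPM, 322 and 1339 did, or 49.6% in all. Of the top 100, 7 overlapped a more abundant gene. Whether reads were assigned by strand is not given in the sources used here.

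The defining markers of the label were all detected in each library, at moderate to low levels. Because 7369 of all 13189 genes were detected in each library too, detection alone does not check the label. esg (FBgn0001981, chromosome 2L, 15333866 to 15336138, plus strand) stood at 30.8, 41.2 and 58.6 CPM, a mean of 43.5 ± 14.1 CPM and rank 1316 of the 11697 detected genes. Sox21a (FBgn0036411, chromosome 3L, 14103481 to 14108118, minus strand), a Sox-family transcription factor that drives enteroblasts toward differentiation, stood at 24.9, 83.3 and 89.6 CPM, a mean of 65.9 ± 35.7 CPM and rank 954. hdc (FBgn0010113, chromosome 3R, 30277932 to 30372382, plus strand), the headcase gene expressed in undifferentiated cells, stood at 36.2, 38.8 and 26.5 CPM, a mean of 33.8 ± 6.49 CPM and rank 1576. It overlaps CR46114 on the opposite strand. Dl (FBgn0000463, chromosome 3R, 19302731 to 19326217, minus strand), the Notch ligand Delta that marks stem cells, stood at 3.96, 4.65 and 12.4 CPM, a mean of 7.0 ± 4.69 CPM and rank 3989. Behind these lay 109, 124 and 208 UMIs for esg, 88, 251 and 318 for Sox21a, 128, 117 and 94 for hdc and 14, 14 and 44 for Dl. esg was lowest in control replicate 1 and highest in 3, and its spread above counting error was 31.2%. Sox21a was 3.61 times as high in control replicate 3 as in 1, and its spread was 53.7%. Without control replicate 3, the Dl mean was 4.30 CPM. Because these are bulk samples, fewer cells of a type and less RNA per cell cannot be told apart.

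Of the 24 progenitor markers, 10 reached 10 CPM in every library, which is 41.7% beside the 20.4% of all genes. Targets of Notch signalling that mark enteroblasts were the most abundant of them. E(spl)m3-HLH, a basic helix-loop-helix repressor, stood at 382, 432 and 407 CPM, E(spl)malpha-BFM, a Bearded-family protein that dampens Notch signalling, at 362, 391 and 450.1 CPM, and E(spl)mbeta-HLH, a repressor often used as an enteroblast reporter, at 192, 269 and 259.9 CPM. Their spreads above counting error were 5.49%, 10.9% and 17%, beside a median of 11.7% for genes of 200 to 1000 CPM. Not every gene of this complex was as abundant, since E(spl)m7-HLH stood at 40.1, 11.9 and 7.89 CPM, E(spl)m8-HLH at 9.89, 1.33 and 9.87 CPM and E(spl)mdelta-HLH at 0.848, 0 and 0.282 CPM. The receptor gene N stood at 116, 78.3 and 76.4 CPM. Sox100B, a Sox factor of the enteroblast, stood at 61.9, 53.8 and 60.9 CPM, and peb, the zinc finger factor Hindsight, at 24, 42.8 and 22 CPM. mira, the adaptor that partitions fate determinants at division, stood at 5.93, 20.2 and 17.2 CPM. Other genes used as markers of these cells were low. Su(H), the DNA-binding partner of the Notch intracellular domain, was at 3.39, 0.332 and 0.282 CPM, spdo, which traffics Notch, at 0.565, 0 and 5.36 CPM, and dpn at 0.565, 0.332 and 1.13 CPM.

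**Figure D1:**
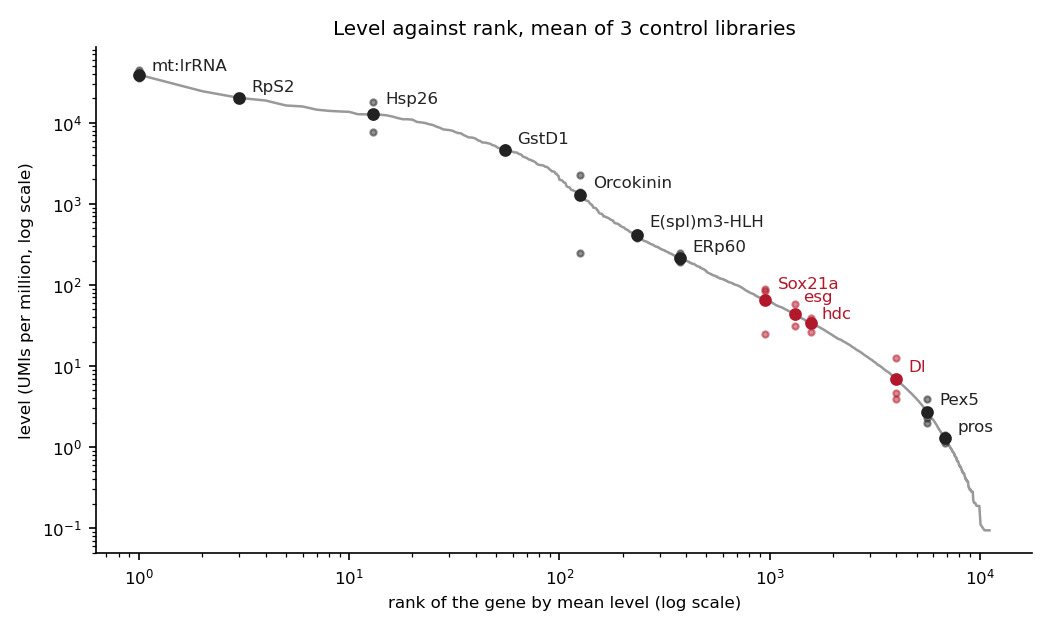
Mean level of each detected gene in CPM against its rank, both on log axes, with named genes marked; large points are means over the 3 control libraries and small points the single libraries. The 4 defining progenitor markers, in red, lie at ranks 954 to 3989, below Orcokinin at rank 126 and E(spl)m3-HLH at rank 234.

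Enteroendocrine hormone transcripts were also abundant, and of the 16 gene classes they and digestive enzymes differed most between libraries. Peptide hormone genes took 0.308%, 0.232% and 0.0945% of the UMIs, so that control replicate 1 held 3.25 times the share of replicate 3. Orcokinin stood at 2264, 1386 and 247 CPM and ranked 97, 121 and 329. NPF, neuropeptide F, stood at 473, 666 and 526 CPM, and Tk, tachykinin, at 86.7, 118 and 79.2 CPM. AstC, allatostatin C, stood at 90.7, 55.1 and 10.4 CPM, CCHa1 at 37.3, 15.3 and 7.89 CPM, CCHa2 at 31.1, 18.3 and 9.87 CPM, AstA at 30.5, 7.3 and 8.17 CPM and Dh31 at 13.8, 20.2 and 20 CPM. Orcokinin, AstC, CCHa1 and CCHa2 were highest in control replicate 1 and lowest in replicate 3, whereas NPF and Tk were highest in replicate 2. Without control replicate 1, the mean of Orcokinin was 817 CPM, against 1299 CPM over all 3. Genes that process hormones were present throughout. The amidating enzymes Phm and Pal2 stood at 157, 117 and 153 CPM and 79.4, 70.4 and 45.9 CPM, and 7B2, a chaperone of the prohormone convertase, at 54.8, 66 and 45.9 CPM. The convertase gene amon itself was at 2.54, 8.96 and 7.33 CPM. pros, the homeodomain factor that specifies enteroendocrine cells, stood at 1.13, 1.33 and 1.41 CPM, Mip at 0.283, 0 and 0 CPM and sNPF at 0, 0 and 0.282 CPM. Of 35 enteroendocrine markers with a row, 12 reached 10 CPM in each library, or 34.3% beside the 20.4% of all genes. The summed level of the 35 was 3447, 2671 and 1300 CPM.

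Enterocyte markers were low to moderate and uneven. Their 43 genes with a row summed to 616, 1141 and 702 CPM. Of the 43, 9 reached 10 CPM in each library, or 20.9%, close to the 20.4% of all genes. mex1, a small protein of the midgut, stood at 170.4, 112 and 139.8 CPM, and the smooth septate junction genes Ssk and Tsp2A at 101, 35.2 and 50.5 CPM and 46.9, 37.5 and 41.7 CPM. The brush border myosin gene Myo31DF stood at 22.9, 18.9 and 9.58 CPM. Secreted protease genes varied far more. The Jonah serine proteases Jon65Aiv and Jon25Bi stood at 16.7, 169.9 and 27.6 CPM and 10.2, 125 and 118 CPM, and the trypsin gene alphaTry at 17, 141 and 47.4 CPM. yip7, a further serine protease near Jon65Aiv on chromosome 3L, stood at 54, 305 and 189 CPM. Of 13 digestive enzyme genes with a mean of at least 10 CPM, 10 were highest in control replicate 2, beside 900 of all 3351 genes at that level, and 9 were lowest in replicate 1, beside 991 of all. Their class took 0.0240%, 0.0932% and 0.0451% of the UMIs, a mean of 0.0541%, and without control replicate 2 the mean was 0.0346%. Amylase was an exception, with Amy-p at 89.8, 69.7 and 58.3 CPM and Amy-d at 39.6, 35.2 and 19.7 CPM, both highest in control replicate 1. nub, whose product Pdm1 defines enterocytes, was at 0, 0.332 and 0 CPM, and caup and Npc1b had no UMI in the 3 libraries.

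Few markers of other tissues reached 10 CPM in every library, which 20.4% of all genes did. The share was 9.52% for visceral muscle, 12.5% for haemocytes, 11.1% for fat body, 12.5% for Malpighian tubules and 9.09% for neurons and glia. Of 21 visceral muscle genes, 2 reached 10 CPM in each library, Tm1 with 67.5, 56.8 and 69.6 CPM and Msp300 with 24.9, 27.2 and 43.7 CPM, and the muscle myosin gene Mhc was at 0, 0.332 and 0 CPM. The list summed to 122, 113 and 139 CPM. Of 8 haemocyte genes with a row, crq reached the threshold with 17, 18.6 and 14.9 CPM, while Hml was at 0, 0 and 0.282 CPM and He at 0 in each. The yolk protein genes Yp1 and Yp2, of the fat body, were at 0 in each library, and Cp1, a lysosomal protease gene, was the 1 gene of 9 in that list at the threshold, with 83.6, 88.6 and 77.8 CPM. Of 8 genes with a row in the Malpighian tubule list, ics alone reached it, with 18.4, 21.9 and 12.4 CPM. Uro was at 0, 0.332 and 0 CPM. The list spells ics as Ics, and the 2 were matched although they differ in case. ics is therefore uncertain as a tubule marker, and so is the 12.5% that rests on it. Among 11 genes of neurons and glia, nrv2 reached 10 CPM in each library with 11.9, 17.3 and 10.4 CPM, and the neuronal RNA-binding protein gene elav was at 3.67, 2.66 and 6.76 CPM. This list was low, with a median of 3.09 CPM over the 11. Of them, 10 had UMIs in all 3 libraries, beside 7369 of all 13189 genes. Tracheal and germline lists had 0 of 7 and 0 of 11 genes at the threshold, with btl at 0, 0 and 2.54 CPM and nos at 0 in each. Of 9 genes of copper and iron cells of the middle midgut, 3 reached the threshold, or 33.3%, and the median was 6.45 CPM. In this list lab, which specifies copper cells, was at 0.283, 0 and 0.564 CPM and Vha100-4 at 0. Ferritin genes, which iron cells express strongly and many other cells express too, were abundant, with Fer1HCH at 577, 724 and 676 CPM and Fer2LCH at 186, 232 and 265 CPM. The part of other cell types in the progenitor values was not tested.

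**Figure D2:**
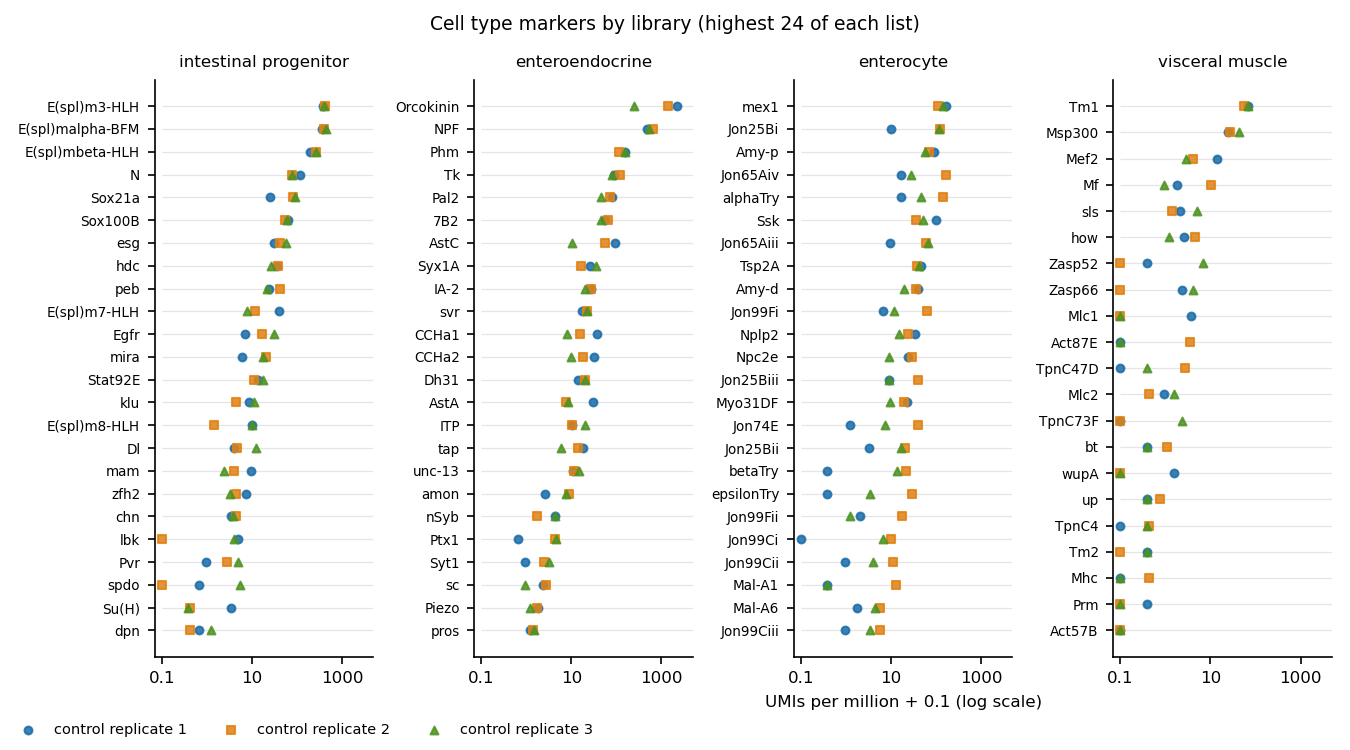
Level of each marker gene in CPM plus 0.1, on a log axis, for the 24 highest genes of the progenitor, enteroendocrine and enterocyte lists and all 21 of visceral muscle; each point is 1 control library. The upper progenitor genes have overlapping points, while Orcokinin and the protease genes are spread widely and most muscle genes lie at the left edge.

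Several signalling pathways set when progenitors divide and what they become. For EGFR signalling, which stem cells need to divide, 11 of 23 genes reached 10 CPM in each library. That is 47.8%, beside the 20.4% of all genes. The ligand spi stood at 63.6, 45.8 and 82.9 CPM, the small GTPase Ras85D at 69.2, 40.8 and 65.7 CPM, the adaptor drk at 53.7, 36.2 and 57.8 CPM and the ubiquitin ligase Cbl, which removes activated receptor, at 53.7, 83.3 and 81.7 CPM. The receptor gene Egfr itself was uneven, at 6.78, 16.6 and 30.7 CPM, and the mean without control replicate 3 was 11.7 CPM. The ligand vn, which visceral muscle supplies, was at 5.37, 4.65 and 7.89 CPM, and the exchange factor gene Sos was at 0 in each library. For JAK-STAT signalling, 4 of 11 genes reached the threshold, or 36.4%. Socs36E, a target and inhibitor of the pathway, stood at 38.4, 56.4 and 73.8 CPM, the cytokine genes upd3 and upd2 at 19.5, 20.6 and 14.9 CPM and 9.04, 22.6 and 18 CPM, Stat92E at 13.6, 11 and 17.5 CPM, and the receptor gene dome at 1.13, 8.3 and 1.97 CPM.

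The stress-activated JNK pathway had 4 of 14 genes at the threshold, or 28.6% beside the 20.4% of all genes. The 4 included its output. Jra and kay, which encode the fly Jun and Fos, stood at 104, 135 and 103 CPM and 86.2, 102 and 97.5 CPM, the kinase gene bsk at 57.9, 50.4 and 89.4 CPM, and puc, a phosphatase gene induced by the pathway, at 52.5, 72 and 79.8 CPM. The ligand egr stood at 7.35, 7.3 and 15.8 CPM and its receptor genes grnd and wgn at 1.7, 0 and 0 and 0.283, 0 and 0 CPM. In the Notch list, 7 of 30 genes reached 10 CPM in each library, or 23.3%, close to the 20.4% of all genes. Besides N and its targets, the 7 included kuz, the protease that makes the first cut of the bound receptor, at 43.5, 60.1 and 49 CPM. They also included the gamma-secretase genes aph-1 and Psn at 48.6, 41.2 and 47.4 CPM and 18.4, 24.9 and 24 CPM. The ligand gene Ser was at 0, 0 and 0.564 CPM.

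The Imd pathway, which senses bacterial peptidoglycan in the gut, had 8 of 25 genes with a row at the threshold, or 32%. Of its negative regulators, pirk and the amidase gene PGRP-LB were among the highest, at 201, 113 and 146 CPM and 92.4, 63.1 and 77.2 CPM. The amidase genes PGRP-SC1a, PGRP-SC1b and PGRP-SC2 averaged 0.094, 0 and 0 CPM. The receptor-side gene PGRP-SD was at 160.5, 108 and 95.8 CPM, the kinase subunit key at 117, 104 and 113 CPM and the NF-kappaB factor Rel at 52.8, 51.4 and 61.4 CPM. Of 9 Imd genes with a mean of at least 10 CPM, 6 were highest in control replicate 1, or 66.7%, beside the 36.4% of all genes at that level. Of the antibacterial peptide genes, AttD stood at 28.8, 18.9 and 26.5 CPM, while AttB, Dro, Mtk and CecB were at 0 in each library. Wnt, Hippo, and BMP and activin lists had 18.8%, 23.1% and 15.4% of their genes at the threshold, beside the 20.4% of all genes. These lists had 3 of 16, 3 of 13 and 2 of 13 there. Their highest genes were CkIalpha, a kinase of the Wnt destruction complex, at 123, 140.1 and 163 CPM, Diap1, an apoptosis inhibitor activated by Yorkie, at 107, 146 and 128 CPM, and Smox, an activin-side Smad, at 33.6, 41.5 and 38.1 CPM. yki itself stood at 42.1, 33.9 and 28.2 CPM and the BMP ligand gene dpp at 0. In the insulin and TOR list, 5 of 19 genes reached the threshold, or 26.3%. Thor, the translation inhibitor 4E-BP, led them at 364, 554 and 551 CPM, and InR stood at 18.1, 13.6 and 17.8 CPM.

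**Figure D3:**
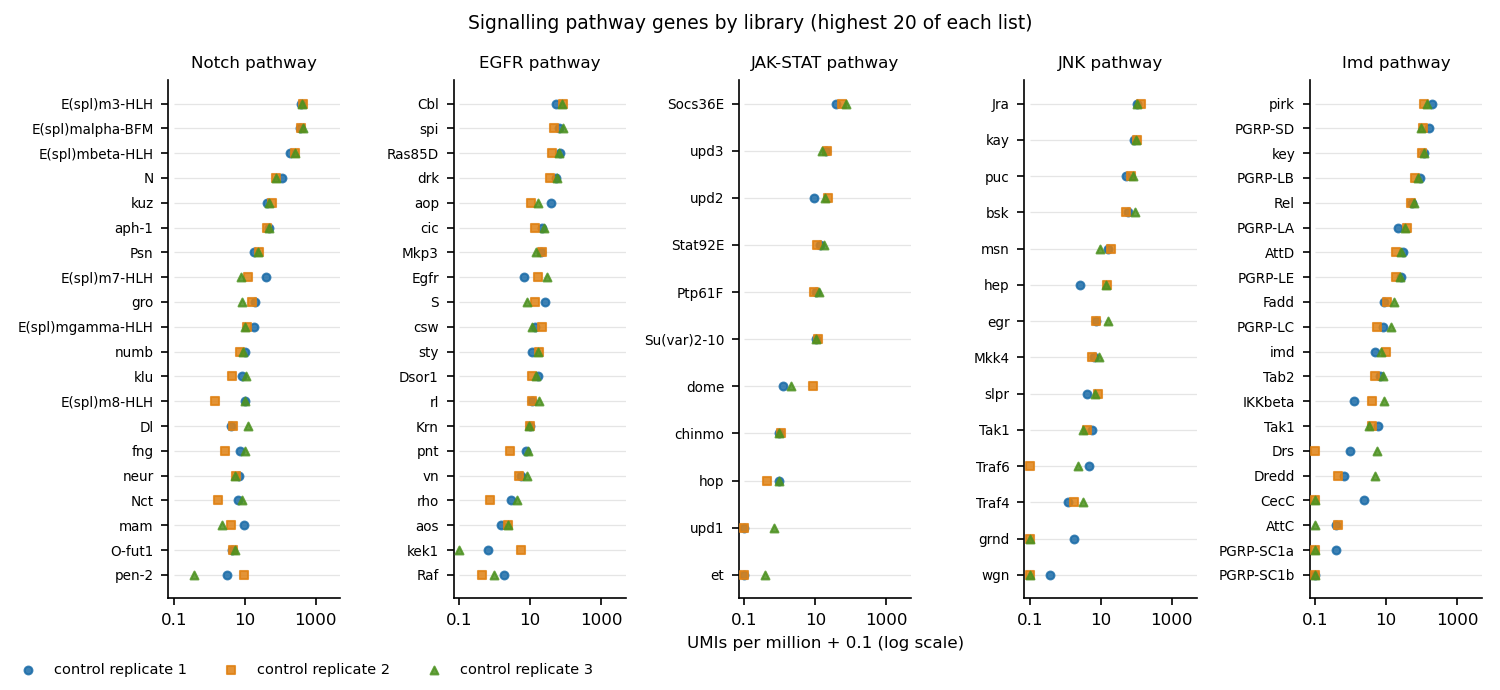
Level of up to 20 genes of the Notch, EGFR, JAK-STAT, JNK and Imd pathway lists in CPM plus 0.1, on a log axis; each point is 1 control library. The 3 Notch targets at the top, E(spl)m3-HLH, E(spl)malpha-BFM and E(spl)mbeta-HLH, lie to the right of all genes of the other pathways except pirk in single libraries, and several ligand and receptor genes lie at the left edge.

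Transcription factor genes were of moderate to low abundance. Of 92 with a row, 38 reached 10 CPM in each library, or 41.3% beside the 20.4% of all genes. Leaving aside the E(spl) repressors described above, the highest in this list were crc and bun, on ranks 239 and 240. crc, the fly ATF4 that acts in the integrated stress response, stood at 370.4, 367 and 428 CPM. bun, of the TSC22 family, stood at 340.2, 412 and 406 CPM. E(spl)m3-HLH, one of those repressors, averaged 407 CPM, above the 389 CPM of crc. Xbp1, of the unfolded protein response, stood at 154, 100.2 and 128 CPM, and Myc, a growth regulator, at 124, 120.1 and 89.1 CPM. Midgut identity factors were lower, with fkh at 37.3, 51.8 and 33.5 CPM, GATAe at 15.3, 20.9 and 19.2 CPM and the nuclear receptor gene Hnf4 at 8.48, 1.66 and 4.51 CPM. Among factors assigned to mature or other cells, Ptx1 stood at 0.565, 4.31 and 4.51 CPM, dimm at 1.13, 0.664 and 0.282 CPM and pdm3 at 0 in each library.

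Cell cycle genes covered a wide range of levels, and both replication and mitotic genes were among the higher and the lower ones. Of 39 with a row, 9 reached 10 CPM in each library, or 23.1%, close to the 20.4% of all genes. The 9 were Set, PCNA, geminin, RnrS, aurB, mad2, polo, E2f1 and E2f2. PCNA, the replication clamp, stood at 132, 119 and 109.6 CPM, geminin, which keeps replication origins from firing again in the same cycle, at 85.9, 114 and 106 CPM, and RnrS, the small subunit of ribonucleotide reductase, at 44.4, 42.8 and 109.9 CPM. Other replication genes were low. Of the genes for the replicative helicase, Mcm2, Mcm5, Mcm6 and Mcm7 averaged 1.55 CPM, 3.69 CPM, 4.15 CPM and 5.28 CPM, while Mcm3 and dpa averaged 11.9 CPM and 8.21 CPM. RnrL, the large reductase subunit, averaged 5.07 CPM and DNApol-alpha180, a polymerase subunit, 2.5 CPM. RnrS was highest in control replicate 3, at 2.57 times its lowest value, and PCNA did not follow it. The mitotic kinase gene aurB stood at 39, 20.2 and 45.1 CPM and polo at 15.5, 12.6 and 14.1 CPM. CycA was at 4.52, 6.31 and 5.07 CPM, CycB at 1.41, 0.664 and 0.282 CPM, CycE at 5.09, 2.99 and 0.564 CPM and the phosphatase gene stg, which triggers mitosis, at 4.24, 4.65 and 2.25 CPM.

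The series concerns peroxisomes and the disulfide isomerase ERp60, so their control levels are given. ERp60 (FBgn0033663, chromosome 2R, 11887568 to 11890979, minus strand), an enzyme that makes and shuffles disulfide bonds of secreted proteins, stood at 192, 195 and 250.0 CPM and ranked 374. Its relative Pdi stood at 221, 200.5 and 171 CPM, CaBP1 at 116, 111 and 95 CPM, the calcium-binding chaperone gene Calr at 172, 140.4 and 131 CPM and the oxidase gene Ero1L at 1.13, 0.664 and 1.97 CPM. Of 21 genes of this list, 14 reached 10 CPM in each library, or 66.7% beside the 20.4% of all genes. Peroxin genes, whose products build peroxisomes and import their enzymes, were uneven in level. Of 15 with a row, 5 reached that threshold, or 33.3%. Pex19, a carrier of membrane proteins, stood at 269, 217 and 213 CPM and Pex14, a docking protein, at 89.3, 92.9 and 115 CPM. Pex5 (FBgn0023516, chromosome X, 1866832 to 1869061, minus strand), the import receptor, was at 2.26, 1.99 and 3.95 CPM from 8, 6 and 14 UMIs, for which counting error alone gives a CV of 33.1%. Pex7 was at 0.283, 0 and 0 CPM.

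Progenitors sit on the basement membrane and hold it through integrins. Of 27 adhesion genes, 11 reached 10 CPM in each library, or 40.7% beside the 20.4% of all genes. The integrin subunit gene mys stood at 47.5, 61.7 and 53.3 CPM, the adaptor genes stck and Ilk at 94.4, 133 and 115 CPM and 49.7, 53.4 and 52.1 CPM, and E-cadherin, encoded by shg, at 28.8, 17.9 and 18 CPM. trol, the basement membrane proteoglycan perlecan, stood at 93.5, 37.5 and 68.5 CPM, while the collagen IV genes Col4a1 and vkg were at 0.283, 0.664 and 1.97 and 1.13, 0.332 and 0.282 CPM.

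Transcripts of dosage compensation and sex determination were read for the makeup of the pools. roX1 and roX2, noncoding RNAs that coat the male X chromosome, stood at 60.7, 38.2 and 64 CPM and 40.1, 14.9 and 25.9 CPM, and Sxl, the switch gene of female development, at 33.1, 52.8 and 35.2 CPM. Of the 11 genes in this list, 5 reached 10 CPM in each library, or 45.5% beside the 20.4% of all genes. fru stood at 89.8, 187 and 66.2 CPM and msl-2 at 2.26, 0.996 and 1.41 CPM. The 24 Y-linked genes in the table had 22, 19 and 10 UMIs in all. Genes on chromosomes 2L, 2R, 3L, 3R, 4 and X reached 10 CPM in each library at close rates, between 18.7% and 22%, and 0 of the 24 Y-linked genes did.

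Heat shock proteins are chaperones that hold or refold damaged proteins, and their transcripts were abundant and differed between the libraries. The class took 1.79%, 2.67% and 3.5% of the UMIs. Hsp26 and Hsp22, small chaperones induced by heat and other stress, stood at 7722, 12269.7 and 17959 CPM and 4095, 6104 and 8024 CPM, and Hsp26 ranked 30, 14 and 5. Hsp23 stood at 1258, 1976 and 2431 CPM and Hsp27 at 872, 1875 and 2131 CPM. The inducible Hsp68 stood at 172, 394 and 755 CPM and Hsp67Bc at 23.7, 50.1 and 95 CPM. The copies Hsp70Aa and Hsp70Bc were at 54.2, 98.2 and 176 CPM and 85, 202 and 296 CPM, and these near-identical genes are uncertain because reads mapping to several loci were dropped. DnaJ-1, an inducible co-chaperone, stood at 67.8, 116 and 274 CPM and the noncoding RNA Hsromega at 516, 721 and 1784 CPM. All of these were lowest in control replicate 1 and highest in control replicate 3. Constitutive chaperones did not follow that order, since Hsc70-4 stood at 2170.1, 2181 and 1524 CPM, Hsp83 at 1013, 1131 and 1054 CPM and the endoplasmic reticulum form Hsc70-3 at 159, 89.3 and 119 CPM. Of 22 genes in the stress and dissociation list with a mean of at least 10 CPM, 13 were lowest in control replicate 1 and highest in replicate 3, an order shown by 550 of all 3351 genes at that level. Of the 24 genes in that list, 22 reached 10 CPM in each library, or 91.7% beside the 20.4% of all genes.

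Most genes with a mean of at least 50 CPM varied less between libraries than these inducible heat shock genes. Spread was computed as the CV over the 3 libraries with counting error taken out. Its median was 14% over 1187 genes with a mean of at least 50 CPM, and 134 of them, or 11.3%, were above 30%. The median fell with level. It was 25.8% for genes of 10 to 50 CPM, 16.8% for 50 to 200 CPM, 11.7% for 200 to 1000 CPM and 7.03% above 1000 CPM, where counting error alone gave 0.908%. The 15 genes of largest spread among those of at least 50 CPM came from few groups. They were the proteases Jon65Aiv, alphaTry, Jon25Bi and yip7, the hormones Orcokinin and AstC, and the stress genes DnaJ-1, Hsromega, Hsp68, Hsp67Bc and Hsp70Aa, with klg, CG14820, Arc1 and RnrS besides. Their spread lay between 55.9% for Hsp70Aa and 119.6% for Jon65Aiv. klg, an immunoglobulin-family adhesion gene, stood at 103, 225 and 36.4 CPM and CG14820 at 80.2, 193 and 43.4 CPM. Arc1, whose protein forms virus-like capsids, stood at 314, 109.9 and 87.9 CPM, with control replicate 1 above both others. Of the 134 genes above 30%, 49, 24 and 61 were highest in control replicates 1, 2 and 3, and 48, 62 and 24 were lowest there. Beside these stand all 3351 genes with a mean of at least 10 CPM. Of them, 1221, 900 and 1230 were highest and 991, 1383 and 977 lowest in these replicates.

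**Figure D4:**
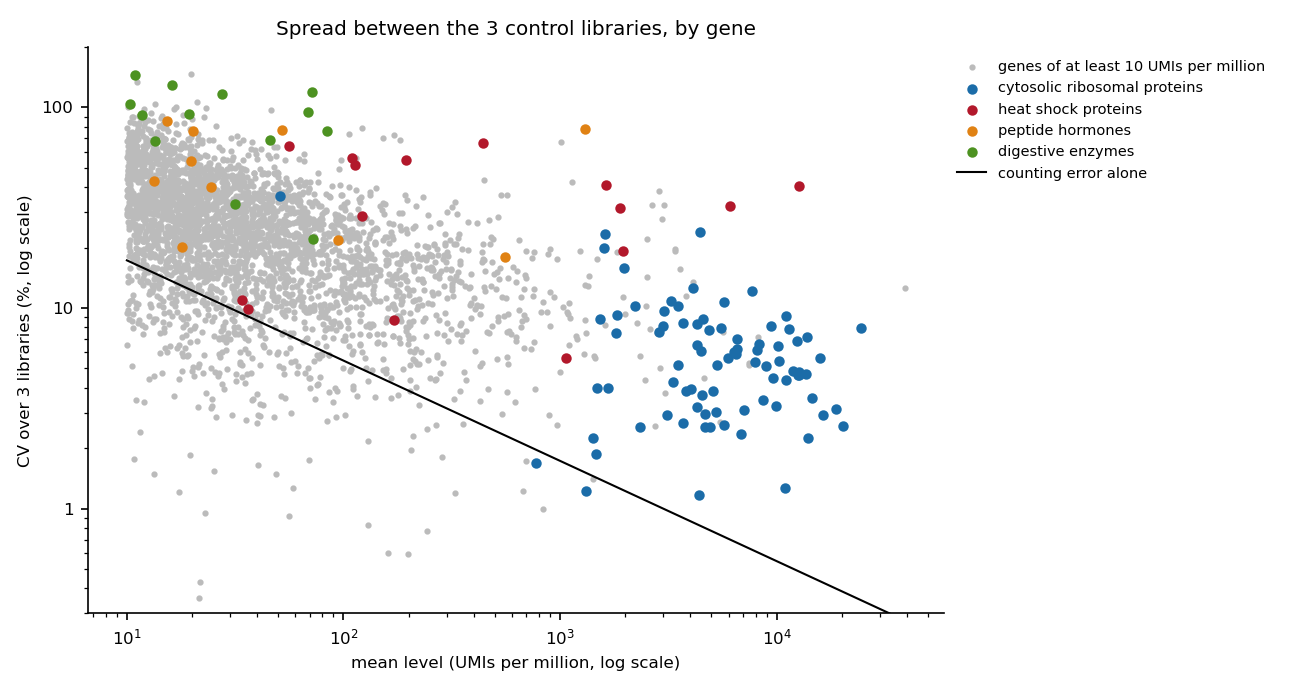
CV over the 3 control libraries in percent against mean level in CPM, both on log axes, for 3351 genes with a mean of at least 10 CPM; coloured points are 4 gene classes, and the line is the CV that counting error alone gives. Ribosomal proteins lie mostly between 1% and 20%, and most digestive enzyme, peptide hormone and inducible heat shock genes lie above the cloud at their level.

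Of the 5 genes of smallest CV among those of at least 200 CPM, 4 had a CV below counting error. All 5 were picked for a small CV over 3 libraries, so this does not show that they are stable. CG9821 stood at 245, 242 and 245 CPM, CG2862 at 331, 324 and 331 CPM and CG16817 at 679, 677 and 664 CPM, with CVs of 0.775%, 1.2% and 1.22%, each below its counting error. snoRNA:Me28S-U2134b, inside RpL13A and as uncertain as the other nested snoRNAs, was the fourth, at 830.3, 847 and 839.7 CPM with a CV of 0.995%. RpL32 was the exception, with a CV of 1.16% against a counting error of 0.825%. Over the 3351 genes with a mean of at least 10 CPM, the correlation of log2(CPM + 1) between pairs of libraries was 0.942, 0.946 and 0.945 across genes, which are not independent replicates. Between 378 and 395 of these genes differed by more than 2-fold in a pair. By these measures, no library stood apart from both others.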

How the data were processed

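Per the labels' protocols, libraries were prepared from RNA of FACS-sorted GFP-positive cells with a QIAseq UPX 3′ kit. The authors deposited UMI counts per gene and well index as raw counts, with read and UMI counts per well. The genome build was dm6, and HISAT2, StringTie and DESeq2 are named without roles, per the submitters' processing notes. Per the file headers of the run metrics, which cover the whole run, 33.4% of reads were dropped for an unmatched well index and 0.717% for mapping to several loci, which undercounts near-identical genes.

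The 3 control columns were used. The 3 columns of Pex5-depleted libraries and 29 columns that match no sample were not used. The 6 spike-in rows held 4 UMIs in the control libraries and were left out. CPM is a UMI count over the library's total of Drosophila genes, times 1000000. Spread is the square root of the squared CV minus the counting variance, or 0 if negative, over 3 libraries. On simulated counts of known spread, its root mean square over genes was held to a narrow limit and its median only to a broad one. The median spread given above was thus not checked closely. Gene types, exons and transcript lengths came from Ensembl release 115, which held 13087 of the 13189 genes. Python 3.11.15, pandas 2.3.3, NumPy 2.4.6, R 4.3.3, edgeR 4.0.16 and DESeq2 1.42.0 were used, the last 2 for scaling factors and the common dispersion.

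With a single group there was no contrast to test and no p-value is given. Replicates are biological per the labels. The members and all gene lists were chosen with earlier results of these data known, so no list is independent support. The genes named are the 4 defining markers, the 20 most abundant, the 15 most abundant outside ribosomal proteins and the mitochondrial genome, the 15 of largest spread from 50 CPM, the 5 of smallest CV from 200 CPM, up to 8 highest members of each list and members whose role makes a level near 0 informative. A few genes that this rule covers are not reported here. Further members of classes or lists were chosen after their values were seen. After values were seen, 4 genes were moved out of classes by function: RpL7-like and RpL24-like (ribosome assembly), Cyp1 (a cyclophilin) and LysRS (a tRNA synthetase). Motifs at transcription start sites had been planned and were not analysed here.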

Additional observations from a re-analysis of the deposited data

How the results depend on the processing

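With a total that leaves out ribosomal protein and mitochondrial genome transcripts, levels and shares moved up by construction, to 115 CPM for esg, 18.3 for Dl, 174 for Sox21a and 89.7 for hdc. The shares became 8.87% for the respiratory chain, 7.01% for heat shock proteins, 6.26% for translation factors, 0.562% for peptide hormones and 0.144% for digestive enzymes, and 133 genes held 50% of the UMIs. Divided by transcript length, ribosomal proteins took 46.8%, the mitochondrial genome 13.4%, the respiratory chain 2.52%, heat shock proteins 1.49% and translation factors 1.37%, and 26 genes held 50%. Division by length gives very short entries the most weight. Among them are snoRNA:Me28S-A2564, with 5498 CPM on 46 bases, and mt:tRNA:Leu-TAG, with 8200 CPM. Levels of both are uncertain, as said above, and so are these shares. With at least 10 UMIs asked for in each library, 4386 genes were detected in all 3. TMM and DESeq2 size factors were run on gene levels, and moved those of the 4 markers by less than 1 SD. Leaving out 1 of 3 libraries cannot move a mean by 1 SD, so that limit tests nothing for the 4 markers and the 7 class shares tried. When each library was left out in turn, 2 of these values fell over 1.5 times below their means. The digestive enzyme share was 0.0346% without replicate 2, and Dl was at 4.30 CPM without replicate 3. The numbers of genes detected in all libraries and holding 50% stayed within 1.5 times. Thinning to the shallowest library left 7243 genes detected in all 3, and asking for at least 3 UMIs left 5866. The median spread was 13.3% with TMM factors, 20.4% from 10 CPM, 9.45% from 200 CPM and 20.6% as edgeR's common value. Among 303 genes of the lists and naming rules with a mean of at least 10 CPM, leaving out control replicate 1, 2 or 3 moved 10, 10 and 9 of them by over 1.5 times. Without replicate 1 these were Arc1, AstA, AstC, CCHa1, E(spl)m7-HLH, Eip63E, Orcokinin, aop, cher and kibra. Without replicate 2 they were CG14820, Jon25Biii, Jon65Aiv, Jon74E, Jon99Fi, alphaTry, betaTry, epsilonTry, klg and yip7. Without replicate 3 they were DnaJ-1, Egfr, Hsp67Bc, Hsp68, Hsromega, ImpL2, RnrS, lgs and rhea. The planned motif search at transcription starts was not run. No paired analysis was possible because there is 1 group and no test. Depth limits genes near 1 CPM: 3 UMIs stand behind 0.846 to 0.996 CPM.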

Other observations

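Paralogs within some complexes, chosen after their values were seen, lay far apart in level. The proteasome subunit gene Prosalpha4 stood at 167, 144 and 188 CPM and its testis paralog Prosalpha4T1 at 0 in each library. Among tubulins, alphaTub84B stood at 1727, 2168 and 1953 CPM and betaTub56D at 2751, 3038 and 2629 CPM, while betaTub85D, the testis form, was at 0 in each. betaTub60D and betaTub97EF were at 55.7, 52.8 and 60.9 CPM and 181, 131 and 113 CPM. Of the large membrane subunits of the vacuolar proton pump, Vha100-1 and Vha100-2 were at 19.2, 26.2 and 13.5 CPM and 6.22, 26.6 and 15.5 CPM, and Vha100-4 was at 0.

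Glycolytic and small-molecule genes not described so far were led by Gapdh2, glyceraldehyde-3-phosphate dehydrogenase, at 1367, 1216 and 1281 CPM, with Pglym78 at 778, 626 and 638 CPM and Ald at 498, 437 and 439 CPM. Tctp, a growth-associated protein, stood at 1118, 1165 and 1023 CPM, Tspo, a protein of the outer mitochondrial membrane, at 1267, 1189.5 and 1095 CPM and the nucleoside diphosphate kinase gene awd at 2867, 2522 and 2152 CPM. The tetraspanin genes Tsp42Ed and Tsp42Ee stood at 436, 373 and 526 CPM and 415, 364 and 543 CPM.

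The adhesion gene kirre (FBgn0028369, chromosome X, 2740384 to 3134532, plus strand) was listed at 1786, 1499 and 2192 CPM, on rank 106. Its span covers w (FBgn0003996, chromosome X, 2790599 to 2796466, minus strand), the eye pigment transporter gene, which lies inside it on the opposite strand and was listed at 112, 127 and 146 CPM. The GFP and no-GFP flies used to set the gate carry w1118, a white allele. Without the strand of the reads, reads of kirre and w cannot be told apart where the genes overlap.

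A few genes had at least 20 UMIs in a single library and 0 in both others. Control replicate 3 had 4 such genes, CG32335 with 56 UMIs, nac with 55, garz with 25 and LysP with 20. Control replicate 1 had 1, CG5973 with 24, and control replicate 2 had 2, Dop2R with 21 and comm with 20. Of 5511 genes with at least 30 UMIs over the 3 libraries, 60 were at 0 in at least 1 of them. The cause was not tested.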
